A study of Mus musculus with 24 samples.

Results

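Alad, which encodes delta-aminolevulinate dehydratase, is described here with 8 further genes of heme synthesis and breakdown, 9 of the 14159 genes measured in mouse quadriceps muscle. The set was chosen from the data: Alad stood higher in MRL/MpJ than in C57BL/6 muscle, and the 8 others (Alas1, Alas2, Uros, Urod, Cpox, Ppox, Fech and Hmox1) were added to see whether that strain difference extended to other steps. All 9 genes were measured in every library. Alad's strain difference is therefore given as a description with no test, and the other 8 genes were tested in all comparisons.

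Bulk RNA was sequenced from whole quadriceps of 2 strains, C57BL/6 (called B6 below) and MRL/MpJ (called MRL). Both strains are inbred, and MRL is known for ear wound closure and for its autoimmune background. Per the study's methods the mice were females of 6 to 8 weeks at surgery, when a piece of the quadriceps was removed (volumetric muscle loss). The defect received saline, a decellularized extracellular matrix from pig intestine (ECM) or polyethylene powder (PE), and the labels place these injured libraries at day 21. Uninjured muscle, for which the labels give no day, was the fourth condition. There were thus 8 strain-by-treatment groups of 3 libraries each. The labels name no transgene or engineered allele. The libraries are named below by strain, treatment and replicate number, and nothing in the sources ties equal numbers to a shared litter or day.

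Heme is built from glycine and succinyl-CoA in a chain that begins in the mitochondrion, passes through the cytosol and ends in the mitochondrion with the insertion of iron. Skeletal muscle needs heme for myoglobin and for the cytochromes of the respiratory chain, and developing red cells need it for hemoglobin. The first enzyme sets the rate and exists in a general form (Alas1) and an erythroid form (Alas2), while heme oxygenase 1 (Hmox1) degrades heme and is abundant in macrophages that take up red cells and debris.

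The values are log2 CPM as deposited, where CPM is a gene's count relative to the scaled size of its library. A gene was called where limma, fitted across all genes and all 24 libraries, gave a Benjamini-Hochberg adjusted p under 0.05. Differences are in log2 CPM, with the standard error (SE) of the fit. Libraries of a group correlated at r of 0.904 or more over all genes except in the MRL PE group, where MRL PE replicate 2 brought the lowest r to 0.812. That library held 13219 CPM summed over 12 macrophage markers, against 281 and 366 CPM in the other MRL PE libraries, and 33829 CPM over 8 muscle fibre markers (Ckm, Acta1, Mb and others), against 134607 and 133270 CPM. Muscle fibre markers summed to 99937 CPM or more in every library of the uninjured, saline and ECM groups. Apart from correlations, which all include it, results that rest on MRL PE replicate 2 are given with and without it.

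**Figure D1:**
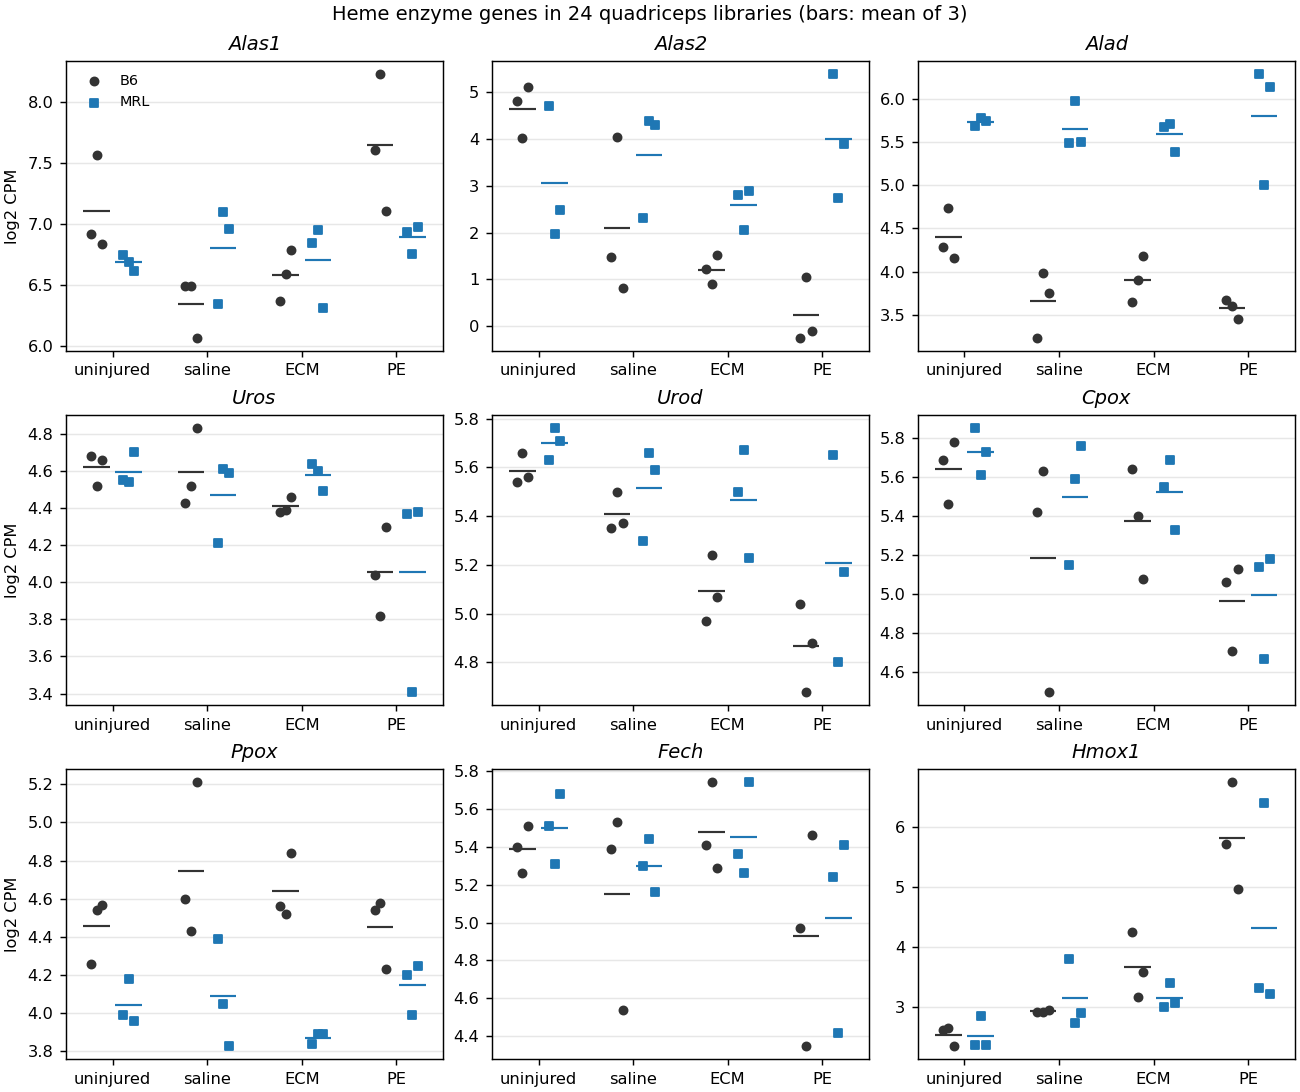
Level of each of the 9 heme genes (log2 CPM, vertical axis) by treatment in B6 (black circles) and MRL (blue squares), with 1 point per library and a bar at the mean of 3; vertical scales differ between panels. Alad in MRL (5.0 to 6.28) lies above Alad in B6 (3.24 to 4.74) in every library, while the strains overlap for the 8 other genes.

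Alad joins 2 molecules of delta-aminolevulinate into porphobilinogen, the second step of the pathway. On GRCm39 the gene lies on chromosome 4 from 62423283 to 62438587, on the minus strand, and overlaps the non-coding genes Gm69517 and Gm69513, which were not among the genes measured. In uninjured muscle Alad stood at 4.29, 4.74 and 4.16 log2 CPM in the B6 libraries and at 5.68, 5.77 and 5.74 log2 CPM in the MRL libraries. After saline the values were 3.24, 3.99 and 3.75 log2 CPM in B6 and 5.49, 5.97 and 5.50 log2 CPM in MRL. The strains did not overlap in either condition. With ECM, Alad read 3.65, 3.90 and 4.18 log2 CPM in B6 and 5.67, 5.71 and 5.38 log2 CPM in MRL. With PE it read 3.68, 3.61 and 3.46 log2 CPM in B6 and 6.28, 5.0 and 6.13 log2 CPM in MRL, the lowest MRL value again belonging to MRL PE replicate 2. The highest B6 library of the series was thus below the lowest MRL library. On the linear scale the B6 libraries ran from 9.34 to 26.7 CPM and the MRL libraries from 31.9 to 77.9 CPM.

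The MRL minus B6 difference of Alad was 1.33 in uninjured muscle, 1.99 after saline, 1.68 with ECM and 2.22 with PE (SE 0.27 each), and 1.81 (SE 0.13) over the 4 treatments, which is a 3.5-fold difference. Only RNA was measured, and the number of Alad gene copies in each strain is not known from these data. Without MRL PE replicate 2 the PE difference was 2.62 and the mean over treatments 1.91. Of all 14159 genes, 93 (0.657%) were higher in all 12 MRL libraries than in all 12 B6 libraries and 111 (0.784%) were lower in all of them. Alad was 1 of the 93, which the choice of the gene fixed.

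The promoters of Alad and Alas2 are shown because Alad carries the strain difference and Alas2 is the gene of the set whose level moved most. Both are RefSeq windows on GRCm38.p6 that run from 250 bases before the annotated start to 50 bases after it, printed 5′ to 3′ along the gene. Capitals mark CACGTG, the motif CACCC and the motif AGATAA on either strand, so that GGGTG is CACCC and TTATCT is AGATAA read on the other strand. The Alad window (chr4:62519860-62520159, minus strand) belongs to 1 of 2 annotated starts, and the Alas2 window is chrX:150547167-150547466 on the plus strand.
Alad: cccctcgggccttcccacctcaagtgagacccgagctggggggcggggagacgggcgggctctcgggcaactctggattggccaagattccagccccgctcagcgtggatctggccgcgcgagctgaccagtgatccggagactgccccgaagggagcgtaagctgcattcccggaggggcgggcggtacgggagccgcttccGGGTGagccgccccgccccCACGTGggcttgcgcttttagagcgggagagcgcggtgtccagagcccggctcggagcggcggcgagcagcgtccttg
Alas2: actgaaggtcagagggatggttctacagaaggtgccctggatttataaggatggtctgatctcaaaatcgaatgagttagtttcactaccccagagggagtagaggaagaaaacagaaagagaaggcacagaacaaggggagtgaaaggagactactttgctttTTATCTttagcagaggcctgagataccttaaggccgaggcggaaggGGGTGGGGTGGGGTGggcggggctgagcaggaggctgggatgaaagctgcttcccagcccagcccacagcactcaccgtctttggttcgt

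The Alas2 window held 1 match to AGATAA, the core of a GATA site, and 3 to CACCC, both letter strings known from erythroid promoters. The Alad window held no AGATAA, 1 CACCC and 1 CACGTG (an E-box), and the second Alad start also held 1 CACGTG. Of 32544 distinct RefSeq promoters of this length, 11.2% held AGATAA, 57.7% CACCC and 7.17% CACGTG. Among the other genes searched (Alas1, Uros, Urod, Cpox and Ppox), AGATAA was found only in Cpox, which held 1 match to it and 4 to CACCC. The latter string was also found in both Alas1 windows and in Urod, and CACGTG in Urod and in 1 Uros window. TGACNNNGC, the antioxidant response string held by 12.4% of promoters, was found in none of the 7 genes searched. These are matches of letters in a reference genome and say nothing of binding or of the MRL sequence.

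The question the set was built for is whether other steps share the strain difference of Alad. Averaged over the 4 treatments, 2 of the 8 other genes were called, against 15.2% of all genes. Alas2 was higher in MRL, as 7.37% of all genes were, and Ppox was lower, as 7.87% of all genes were. The median difference of the 8 genes was 0.04, beside -0.01 over all genes.

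Ppox, protoporphyrinogen oxidase (GRCm39 chromosome 1, 171100969 to 171109385, minus strand), makes protoporphyrin in the mitochondrion, 1 step before iron is inserted. It was lower in MRL by a difference of -0.53 (SE 0.09, limma adjusted p = 4.6e-04). In uninjured muscle Ppox read 4.26, 4.54 and 4.57 log2 CPM in B6 and 3.99, 4.18 and 3.96 log2 CPM in MRL. With ECM it read 4.56, 4.52 and 4.84 log2 CPM in B6 and 3.84, 3.89 and 3.89 log2 CPM in MRL. The strains did not overlap in these 2 conditions, and over the whole series 10 of 12 MRL libraries lay below every B6 library. The call held when any 1 of the 24 libraries was left out, with adjusted p between 1.8e-04 and 0.00133. Within single treatments Ppox was called only with ECM (difference -0.76, SE 0.19, limma adjusted p = 0.0273). That call was lost when any 1 of the 6 ECM libraries was left out, with adjusted p between 0.0501 and 0.16. The differences after saline (-0.65, adjusted p = 0.0782), in uninjured muscle (-0.41, adjusted p = 0.413) and with PE (-0.31, adjusted p = 0.391) were not called by limma. Ppox overlaps B4galt3 on the opposite strand, and the study's pseudoalignment commands carry no strand option, so reads of the 2 genes may not be told apart. B4galt3 differed by -0.19 between the strains on average (SE 0.09, limma adjusted p = 0.173) and by -0.49 with ECM (SE 0.19, adjusted p = 0.23), in the same direction as Ppox.

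Alas2, the erythroid form of the first enzyme (GRCm39 chromosome X, 149330371 to 149353634, plus strand), was higher in MRL by 1.28 on average (SE 0.41, limma adjusted p = 0.0397), but the strains overlapped and the direction changed with treatment. In uninjured muscle Alas2 read 4.81, 4.02 and 5.12 log2 CPM in B6 and 4.70, 1.98 and 2.48 log2 CPM in MRL. With PE it read -0.25, 1.05 and -0.10 log2 CPM in B6 and 5.39, 2.74 and 3.89 log2 CPM in MRL. Uninjured B6 libraries were thus among the highest of the series and B6 PE libraries among the lowest. The PE difference of 3.77 (SE 0.81) was called by limma (adjusted p = 0.011), and those in uninjured muscle (-1.60, adjusted p = 0.507), after saline (1.57, adjusted p = 0.422) and with ECM (1.38, adjusted p = 0.49) were not. The average call was lost in 16 of the 24 fits that leave out 1 library, with adjusted p up to 0.0789 over all 24 fits, and also with log2(CPM + 1) (0.99, adjusted p = 0.0685) and with same-numbered libraries as a replicate block (1.28, adjusted p = 0.0558). The PE call was lost without B6 PE replicate 1 (3.53, adjusted p = 0.0642) or MRL PE replicate 1 (3.08, adjusted p = 0.096), and with only the compared groups in the fit (3.77, adjusted p = 0.122). Alas2 overlaps Apex2 on the opposite strand, and Apex2 differed by 0.20 between the strains (adjusted p = 0.285).

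The remaining steps were not called between the strains on average. Alas1, the general form of the first enzyme, differed by -0.15 (95% interval -0.43 to 0.12). Uros, which closes the porphyrin ring, differed by 0.00 (-0.21 to 0.22). Urod, which trims the side chains of that ring, differed by 0.24 (0.05 to 0.42, limma adjusted p = 0.0724). Cpox, the next oxidase, differed by 0.15 (-0.11 to 0.40), Fech, which inserts the iron, by 0.08 (-0.22 to 0.38), and Hmox1 by -0.45 (-1.07 to 0.16). For Alas1, Uros, Urod, Cpox and Fech, the intervals of this average thus did not reach a difference of 0.5 in either direction, beside 1.81 for Alad. The average of Alas1 joins opposite signs, 0.45 after saline and -0.76 with PE, neither called by limma (adjusted p = 0.479 and 0.114).

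**Figure D2:**
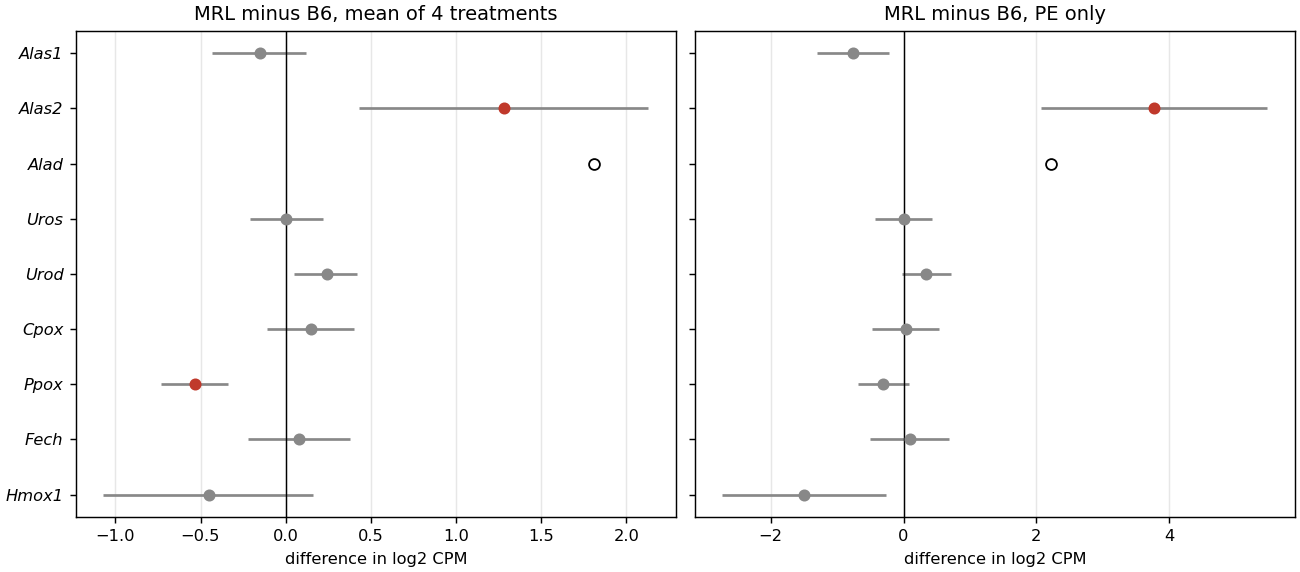
MRL minus B6 difference in log2 CPM (horizontal axis; each panel has its own range) of the 9 genes in pathway order, as the mean of 4 treatments (left) and with PE (right), with 95% intervals of the limma fit. Red points were called, grey points were not, and the open point is Alad, which was chosen for this difference and not tested; on the left, Alas2 (1.28) lies to the right of 0 and Ppox (-0.53) to the left.

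Within single treatments, none of the 8 genes was called by limma in uninjured muscle, where 2.6% of all genes were and where no member but Ppox had an unadjusted p under 0.05. None was called after saline either, against 2.51% of all genes, and Ppox again was the only 1 with an unadjusted p under 0.05. With ECM 1 of 8 was called (Ppox), against 2.66%, and with PE 1 of 8 (Alas2), against 3.35%. An unadjusted limma p under 0.05 was found with ECM for Urod and Ppox, beside 13.4% of all genes. With PE it was found for Alas1 (-0.76), Alas2 and Hmox1 (-1.50), beside 19.1% of all genes. Without MRL PE replicate 2 the average count was 4 of 8 (Alas2, Urod, Ppox and Hmox1) and the PE count 3 of 8 (Alas2, Urod and Hmox1), while the shares of all genes called rose to 32.7% and 24.6%. In those fits Urod differed by 0.29 on average (adjusted p = 0.00759) and by 0.55 with PE (adjusted p = 0.0192). Hmox1 differed by -0.72 on average (adjusted p = 0.00639) and by -2.54 with PE (adjusted p = 1.5e-04).

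The genes beside Alad were compared next, since a strain difference can be shared along a chromosome. The matrix held 13 genes within 500 kb of Alad, of 16 protein-coding genes annotated there. Of these, 4 were called between the strains on average, against 15.2% of all genes. Without MRL PE replicate 2, 7 of the 13 were called, against 32.7%. The median difference of the 13 genes was 0.02.

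Wdr31, a WD-repeat gene 34.1 kb from Alad, differed most. It read 0.82, -0.74 and -0.20 log2 CPM in uninjured B6 muscle and 3.42, 3.02 and 3.44 log2 CPM in uninjured MRL muscle. Every MRL library of the series (1.03 to 3.44 log2 CPM) lay above every B6 library (-1.0 to 0.98 log2 CPM), the lowest MRL value being that of MRL PE replicate 2. The average difference was 2.76 (SE 0.24, limma adjusted p = 6.1e-08), and Wdr31 was called in each of the 4 treatments, with differences from 2.08 with PE to 3.34 in uninjured muscle. Parts of its transcript match Slco1a6 and Wipf2, so some of its reads may be shared.

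Hdhd3, a gene of the haloacid dehalogenase family 1.6 kb from the 3′ end of Alad, was higher in MRL by 1.65 on average (SE 0.23, limma adjusted p = 3.2e-05). With PE it read 0.33, 0.57 and 0.41 log2 CPM in B6 and 3.68, 2.44 and 3.68 log2 CPM in MRL, and the groups did not overlap (difference 2.83, SE 0.45, adjusted p = 6.0e-04). The differences in the other treatments, 0.97 to 1.42, were not called by limma (adjusted p 0.135 to 0.364). Bspry lies between Hdhd3 and Wdr31, 7.7 kb from Alad, and its difference of 0.46 (SE 0.26, adjusted p = 0.229) was not called.

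On the other side of Alad, 0.7 kb from its 5′ end, Pole3, a histone-fold subunit of DNA polymerase epsilon, differed by -0.06 (SE 0.06, adjusted p = 0.511). Its 24 libraries ran only from 4.27 to 4.82 log2 CPM. Farther out, Slc31a1, a copper importer, differed by 0.33 (SE 0.10, limma adjusted p = 0.0342) and Cdc26, a subunit of the anaphase-promoting complex, by -0.37 (SE 0.07, limma adjusted p = 0.00125). The Slc31a1 call was lost in 9 of 24 fits without 1 library, with adjusted p up to 0.0671. The remaining genes (Mup3, Zfp37, Slc31a2, Fkbp15, Prpf4, 4933430I17Rik and Rgs3) had differences between -0.67 and 0.17, and none was called. Mup3 belongs to a family of near-identical copies and its value is uncertain.

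**Figure D3:**
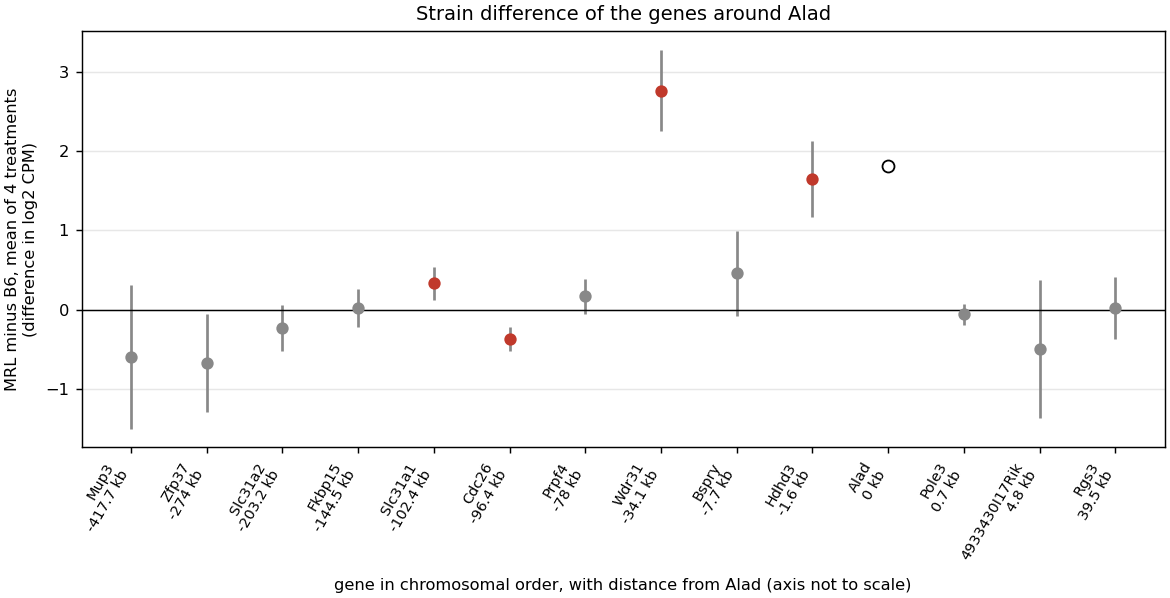
MRL minus B6 difference in log2 CPM, as the mean of 4 treatments with the 95% interval (vertical axis), for Alad and the 13 measured genes within 500 kb in chromosomal order, with the distance to Alad in kb under each name. Red points were called, grey points were not, and the open point is Alad (1.81, not tested); Wdr31 (2.76) and Hdhd3 (1.65) lie on one side of Alad, and Pole3 (-0.06) is next to it on the other.

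Injury and material effects within each strain were not used to choose the set, so Alad was tested here with the 8 others. Comparisons with the same uninjured or saline libraries share those libraries. In bulk muscle, a change in the number of cells that express a gene and a change in its RNA per cell cannot be told apart. Of the 9 genes, none was called after saline in B6 or in MRL (0% of all genes in both strains, with 1751 and 439 genes at an unadjusted p under 0.05), nor with ECM in B6 (0.424%) or in MRL (0.0141%). At an unadjusted p under 0.05, 3 of the 9 genes were found after saline in B6 (Alas1, Alas2 and Alad, beside 12.4% of all genes), 2 with ECM in B6 (Alas2 and Urod, beside 16.8%) and none in the 2 MRL comparisons. Against saline, ECM called none of the 9 in B6 (0.0283% of all genes) or in MRL (0.00706%), and none had an unadjusted p under 0.05.

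PE against uninjured muscle changed 5 of the 9 genes in B6, against 24.8% of all genes. Hmox1 rose, as 14.7% of all genes did, and Alas2, Alad, Urod and Cpox fell, as 10% of all genes did. The median change of the 9 genes was -0.57, beside 0.02 over all genes. In MRL none of the 9 was called, against 9.73% of all genes (5.95% higher and 3.78% lower), and 4 of them (Uros, Urod, Cpox and Hmox1) had an unadjusted p under 0.05, as 36.1% of all genes did. The B6 count fell to 3 without B6 uninjured replicate 1, 2 or 3 or B6 PE replicate 1 and to 2 without B6 PE replicate 2, and lay between 4 and 6 without any other library. The MRL count rose to 4 without MRL PE replicate 1 and to 3 without MRL PE replicate 3, and stayed at 0 without MRL PE replicate 2. The share of all genes called in these fits is not given here and can shift as well, so these counts describe only how stable the calls are.

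Hmox1 (GRCm39 chromosome 8, 75820241 to 75827217, plus strand) was the gene that rose. It read 2.61, 2.65 and 2.35 log2 CPM in uninjured B6 muscle and 5.72, 6.74 and 4.96 log2 CPM in B6 PE muscle, with no overlap. The change was 3.27 (SE 0.59, limma adjusted p = 0.00264), a 9.63-fold rise, and the call held without any 1 library (adjusted p up to 0.0294). In MRL, Hmox1 read 2.36, 2.84 and 2.36 log2 CPM in uninjured muscle and 3.31, 6.40 and 3.22 log2 CPM with PE. The MRL change of 1.79 (SE 0.59, adjusted p = 0.0552) was not called by limma, and without MRL PE replicate 2 it was 0.74 (adjusted p = 0.304). It was called without B6 PE replicate 2 (1.79), MRL PE replicate 1 (2.29) or MRL PE replicate 3 (2.33), with adjusted p from 0.0206 to 0.0465. With equal library totals in place of the deposited scaling, the MRL change was 2.19 and was called (adjusted p = 0.0416). Against saline, the B6 PE change was 2.88 (SE 0.59, limma adjusted p = 0.0198), but the call was lost without any of B6 saline replicates 1, 2 and 3 or B6 PE replicates 1 and 2 (2.41 to 2.93, adjusted p from 0.0507 to 0.193).

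The macrophage markers moved with Hmox1. Their summed level was 182 to 259 CPM in uninjured B6 libraries and 4106 to 13192 CPM in B6 PE libraries, 281, 13219 and 366 CPM in the 3 MRL PE libraries and 138 to 233 CPM in uninjured MRL libraries. All 12 markers were above 0 in every library, and 10 of them rose in B6 with PE, beside 14.7% of all genes. Across the 24 libraries the log2 level of Hmox1 followed the log2 sum with r = 0.978 (0.985 within B6 and 0.980 within MRL, 12 libraries each). Within MRL, replicate 2 of PE lay far from the rest, which held 138 to 606 CPM and Hmox1 at 2.36 to 3.79 log2 CPM. No r was computed without that library. The 5 genes whose levels were most like that of Hmox1 were Hk3, Itgam, Cotl1, Ncf1 and Cd68, with Pearson r between 0.978 and 0.982 over 24 libraries. With the group means removed they were Rgs18, Hcls1, Cotl1, Spi1 and Fcer1g (r 0.964 to 0.973). These points share library, depth and cell makeup. Of 6 neutrophil markers listed, the 4 measured (S100a8, S100a9, Csf3r and Cxcr2) also rose in B6 with PE (2.93 to 5.49), beside 14.7% of all genes. They summed to 1 to 3.08 CPM in uninjured B6 libraries and 16.3 to 127 CPM in B6 PE libraries. In MRL PE replicates 1, 2 and 3 they summed to 2.92, 23.7 and 2.64 CPM. The parts of macrophage and neutrophil content in the Hmox1 change were not tested.

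Alas2 had the largest fall. It dropped from 4.81, 4.02 and 5.12 log2 CPM in uninjured B6 muscle to -0.25, 1.05 and -0.10 log2 CPM with PE, a change of -4.42 (SE 0.81, limma adjusted p = 0.00286) that held without any 1 library (adjusted p up to 0.0191). On the linear scale this was 16.1 to 34.7 CPM against 0.761 to 1.99 CPM. After saline, B6 replicate 2 read 4.04 log2 CPM, at the level of uninjured muscle, while replicates 1 and 3 read 1.47 and 0.81 log2 CPM. The B6 ECM libraries read 1.22, 0.89 and 1.51 log2 CPM, all below every uninjured B6 library (change -3.44, SE 0.81, adjusted p = 0.0655). That ECM change was called in 4 of the 24 fits that leave out 1 library, those without B6 saline replicate 2 or 3, MRL saline replicate 1 or MRL PE replicate 2. In MRL, PE changed Alas2 by 0.95 (SE 0.81, adjusted p = 0.399), and MRL libraries of every treatment stood at 1.98 log2 CPM or more.

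Hemoglobin genes moved with Alas2. The summed level of Hba-a1, Hba-a2, Hbb-bs and Hbb-bt was 1297 to 2867 CPM in uninjured B6 libraries, 138 to 151 CPM in B6 ECM libraries and 69.5 to 116 CPM in B6 PE libraries. In MRL it was 396 to 2466 CPM in uninjured muscle and 664 to 4084 CPM with PE. B6 saline replicate 2, the library with high Alas2, held 1476 CPM, against 306 and 178 CPM in the other B6 saline libraries. The log2 level of Alas2 followed the log2 sum with r = 0.979 over 24 libraries (0.987 in B6 and 0.948 in MRL). Of 14 erythroid genes listed, 8 were measured, and 6 of these fell in B6 with PE, against the 10% of all genes that fell. Among them were the 4 hemoglobin genes (-4.53 to -4.65) and Slc4a1, the anion exchanger of red cells (-4.81). Slc4a1 was listed at 0 in all 3 B6 PE libraries, under the 0.119 CPM that 3 counts would give, so its fitted change depends on the prior count. Ank1 and Bpgm, which muscle also expresses, were not called. Hba-a1 and Hba-a2 are near-identical copies whose strain differences had opposite signs (2.72 and -1.52), so the strains are compared here only by a sum that holds both. The counts of erythroid genes called still include each copy singly. The part of red cell content in the Alas2 values was not tested.

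**Figure D4:**
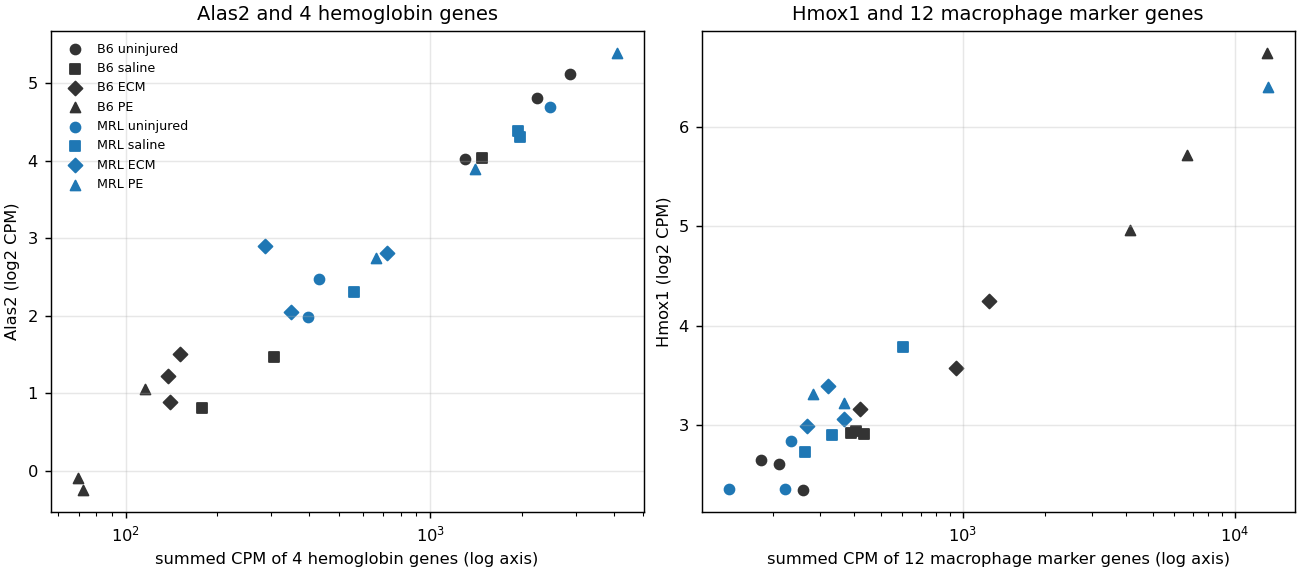
Level of Alas2 against the summed CPM of 4 hemoglobin genes (left) and of Hmox1 against the summed CPM of 12 macrophage markers (right), 1 point per library, B6 black and MRL blue, with the symbol giving the treatment; horizontal axes are logarithmic. Alas2 follows hemoglobin with r = 0.979, and MRL PE replicate 2 (13219 CPM) lies with the B6 PE libraries on the right while the other MRL PE libraries do not.

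Alad itself fell with PE in B6, from 4.29, 4.74 and 4.16 log2 CPM in uninjured muscle to 3.68, 3.61 and 3.46 log2 CPM, with no overlap (change -0.81, SE 0.27, limma adjusted p = 0.0356). In MRL the change was 0.07 (SE 0.27, adjusted p = 0.86), and it was 0.48 (adjusted p = 0.256) without MRL PE replicate 2, -0.17 without MRL PE replicate 1 and -0.09 without MRL PE replicate 3. The summed level of 6 adipocyte markers (Adipoq, Plin1, Cidec, Lep, Fabp4 and Pparg) was 641 to 2973 CPM in uninjured B6 libraries and 143 to 281 CPM in B6 PE libraries, and read 3892, 350 and 2566 CPM in MRL PE replicates 1, 2 and 3, replicate 2 being the lowest for Alad as well. Of the 6 markers, Cidec and Fabp4 fell in B6 with PE (limma adjusted p = 0.0486 and 0.0485), beside 10% of all genes that fell. Between the strains with PE only Lep was called (4.82, adjusted p = 0.0405), beside 3.35% of all genes. The adipocyte sum did not run with Alad in all groups. After saline the sum was highest in replicate 1 of each strain (433 CPM in B6 and 910 CPM in MRL), where Alad was lowest. In B6 with ECM it ran in the order of Alad (146, 232 and 1468 CPM). Its mean in uninjured muscle was 1578 CPM in B6 and 854 CPM in MRL, while Alad was higher in MRL. The part of fat content in the Alad values was not tested. The B6 call of Alad was lost when any 1 of the 6 libraries compared was left out (-0.64 to -0.93, adjusted p from 0.0514 to 0.12). Urod fell from 5.54, 5.66 and 5.56 log2 CPM to 5.04, 4.68 and 4.88 log2 CPM in B6, again with no overlap (change -0.72, SE 0.17, adjusted p = 0.00958), and this call was lost only without B6 PE replicate 2 (-0.63, adjusted p = 0.0671). Cpox fell by 0.67 in B6 (SE 0.24, adjusted p = 0.0482), a call lost in 19 of 24 fits without 1 library. The MRL changes were -0.49 for Urod (adjusted p = 0.0649) and -0.73 for Cpox (adjusted p = 0.0555).

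The remaining genes were not called for PE against uninjured muscle in either strain. Uros changed by -0.57 in B6 (adjusted p = 0.0502 by limma) and by -0.54 in MRL (adjusted p = 0.0756). Uros overlaps Bccip on the opposite strand, and Bccip changed by -0.46 in B6 (adjusted p = 0.0487). Fech changed by -0.46 and -0.48, and Ppox by 0.00 and 0.10, in B6 and MRL. Alas1 read 6.92, 7.57 and 6.84 log2 CPM in uninjured B6 muscle, 6.49, 6.49 and 6.07 log2 CPM after saline and 7.61, 8.23 and 7.11 log2 CPM with PE. It was called in B6 for PE against saline (change 1.30, SE 0.26, limma adjusted p = 0.0198) and not for PE against uninjured muscle (0.54, adjusted p = 0.123). The saline call was lost without B6 saline replicate 2 or 3 or B6 PE replicate 1 or 2 (1.01 to 1.37, adjusted p from 0.0543 to 0.193).

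The moderate falls depend on the scaling of the libraries. The deposited scaling left totals of 1025596 to 1262288 CPM in uninjured libraries and 733112 to 974293 CPM in PE libraries. With equal totals the median of all genes moved by 0.43 in B6 and 0.47 in MRL for PE against uninjured muscle. Then Alad (-0.40), Urod (-0.31) and Cpox (-0.26) kept their direction in B6 but were no longer called (adjusted p from 0.0999 to 0.231), and Alas1 was called (0.96, adjusted p = 0.0172). Alas2 (-4.02) and Hmox1 (3.68) stayed called. Markers of other cells differed beside these genes. Macrophage markers ran inversely to them, with r over 24 libraries of -0.894 for Urod, -0.867 for Uros, -0.670 for Cpox and -0.484 for Alad. For Alad, whose strains do not overlap, r was -0.570 within B6 and -0.664 within MRL (12 libraries each). The 8 muscle fibre markers summed to 148756 to 193844 CPM in uninjured B6 libraries and 57775 to 123619 CPM in B6 PE libraries. None of the 8 was called (median change -0.85), beside 24.8% of all genes. Their sum had an r of 0.710 with Urod (0.717 within B6 and 0.756 within MRL). With Alad r was only 0.255 (0.319 within B6 and 0.455 within MRL). The values of r over all libraries and within MRL include MRL PE replicate 2, and none was computed without it. The parts of macrophage and fibre content in these changes were not tested.

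**Figure D5:**
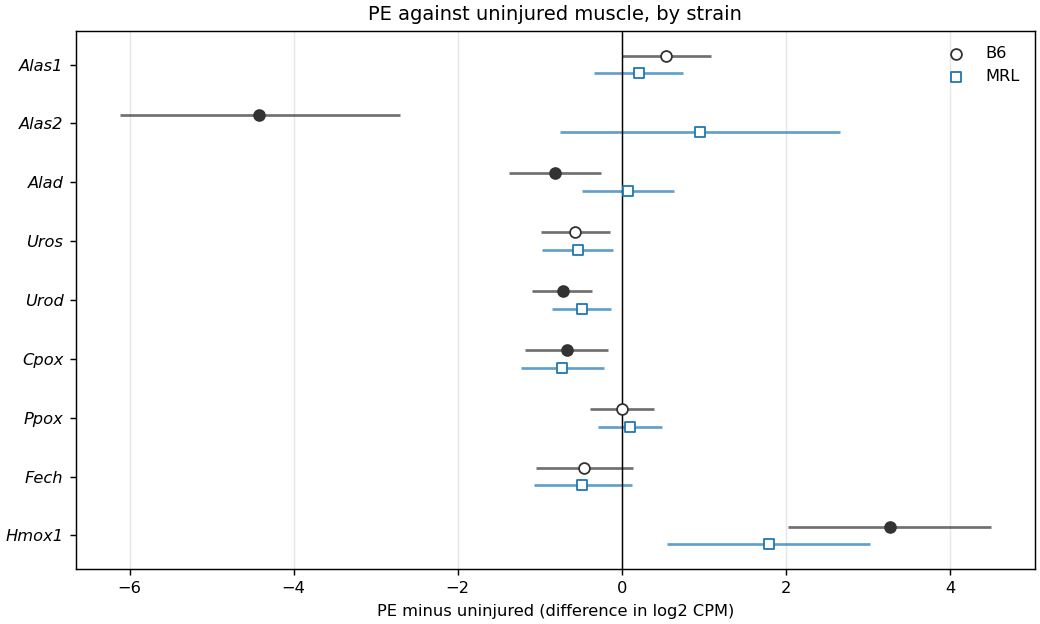
Change of the 9 genes from uninjured to PE muscle in log2 CPM (horizontal axis) with 95% intervals of the limma fit, in B6 (black circles) and MRL (blue squares). Filled symbols were called: 5 genes in B6, among them Alas2 (-4.42) and Hmox1 (3.27), and none in MRL.

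Against saline, PE called 2 of the 9 genes in B6 (Alas1 and Hmox1), against 5.97% of all genes, and none in MRL, where limma called 0% of all genes and 3298 had an unadjusted p under 0.05, none of the 9 among them. Without MRL PE replicate 2, Uros and Urod were also called in B6 (-0.54 each, adjusted p = 0.0137 and 0.0157), against 17.5% of all genes.

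Whether PE acted differently in the strains was tested as the difference of the 2 changes. None of the 8 genes other than Alad was called for saline (0% of all genes, with 570 at an unadjusted p under 0.05), ECM (0.00706%) or PE (0.0212%). At an unadjusted p under 0.05, limma gave Alas1 and Alas2 for saline, Alas2 for ECM and Alas2 for PE. The PE interaction of Alas2 was 5.37 (SE 1.15, adjusted p = 0.181) and that of Hmox1 -1.48 (SE 0.84, adjusted p = 0.534). Without MRL PE replicate 2 both were called, with 6.01 (adjusted p = 0.00373) for Alas2 and -2.52 (adjusted p = 0.00659) for Hmox1, against 9.56% of all genes. Without MRL uninjured replicate 1 Alas2 alone was called (6.19, adjusted p = 0.0391). The same quantity for Alad, given with no test, was 0.66 for saline, 0.34 for ECM and 0.89 for PE.

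Genes around the pathway were grouped in lists by known function. Of 21 genes of heme transport, breakdown and cofactor supply, 3 were called between the strains on average: Abcb10, a mitochondrial transporter needed for heme synthesis (0.74, adjusted p = 0.00201), was higher in MRL, and Slc25a37 (mitoferrin 1, -0.38, adjusted p = 0.0206) and Slc25a38, the mitochondrial glycine carrier (-0.33, adjusted p = 0.00942), were lower. The list's share of 14.3% called lies beside 15.2% over all genes. With PE in B6, 4 of the 21 rose and 5 fell, beside 14.7% and 10% of all genes. Those that rose were the biliverdin reductases Blvrb (2.19) and Blvra (1.41), the heme exporter gene Mfsd7b (1.16) and the heme transporter Slc48a1 (0.94). Among those that fell were Abcb10 (-0.91), Clpx (-0.84) and Abcb6 (-0.77). In MRL 3 rose with PE (Blvrb, Pgrmc1 and Slc48a1) and 1 fell, beside 5.95% and 3.78% of all genes. Without MRL PE replicate 2, limma called 0 of the 21 in MRL and 0.00706% of all genes, and without B6 PE replicate 2 it called 0 of the 21 in B6. The share of all genes in the latter fit is not given here.

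Of 15 iron genes measured, 2 (13.3%) were called between the strains, beside 15.2% of all genes: Hfe, a regulator of iron uptake, was lower in MRL (-1.01, adjusted p = 7.2e-07) and Cp, the ferroxidase ceruloplasmin, was higher (0.80, adjusted p = 0.00435). With PE in B6, 3 rose, namely Ftl1 (3.29) and Fth1 (1.07), the ferritin chains, and Lrp1 (2.29), a receptor for heme bound to hemopexin, which is 20% of the list beside 14.7% of all genes, and none fell. In MRL, PE raised Ftl1 (2.12) and Lrp1 (1.77) as well (limma adjusted p = 0.0474 each), beside 5.95% of all genes. Neither was called without MRL PE replicate 2. Of 11 genes of the Nrf2 and Bach1 response, which also governs Hmox1, 7 rose with PE in B6, beside 14.7% of all genes, and none fell. Among the 7 were Slc7a11 (4.75), Srxn1 (1.57), Txnrd1 (1.42) and Nfe2l2 (1.30). A further list held 16 genes for heme proteins, their assembly and their heme-free partners (Uqcrfs1, Por and Cyb5r3), called heme protein genes below. Of these 16, 6 fell with PE in B6, beside 10% of all genes. Among them were Cox10, which makes heme A for cytochrome oxidase (-1.43), and the respiratory chain genes Cycs (-1.35), Cyc1 (-1.34) and Uqcrfs1 (-1.27). Another 4 rose, beside 14.7%, namely the phagocyte oxidase subunits Cybb (6.03) and Cyba (4.8), Cygb (1.17) and Cyb5r3 (0.88). In MRL with PE, Cyb5a (1.26) and Cyb5r3 (1.18) rose and Sdhc (-1.10) fell, beside 5.95% and 3.78% of all genes. None of them was called without MRL PE replicate 2. Between the strains 1 of the 16, Sdhc of succinate dehydrogenase, was called (1.15, adjusted p = 3.1e-05), and 2 of the 11 response genes were, Nqo1 (0.68) and Gsr (0.41), which are 6.25% and 18.2% of the lists beside 15.2% of all genes.

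The genes whose levels were most like that of Alad over the 24 libraries were Hddc3, AK157302, Vcp-rs, Amd2 and Rbp7, with Pearson r from 0.939 to 0.963. The strains form separate clusters in each of them, with no overlap, so these values mostly restate the strain difference. Within strains their r with Alad was 0.524 to 0.736 in B6 and 0.373 to 0.689 in MRL (12 libraries each). With the group means removed, the genes most like Alad were Hsd17b10, Inca1, Slc25a23, Pcyt2 and Etfb (r 0.883 to 0.912), and among the members Urod was closest (r = 0.721). The points share library, depth and cell makeup.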

How the data were processed

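Total RNA of 24 quadriceps muscles was sequenced as paired-end reads by the authors, who pseudoaligned the reads with Kallisto to a GRCm39 transcriptome, kept genes above 1 CPM in at least 3 libraries, scaled with the trimmed mean of M-values and deposited log2 CPM values per gene. No counts were analysed here. The lowest value (-3.65) marks 0 counts with a prior count of 2 at a mean effective library of 25149678 reads, and 3 counts are 0.119 CPM. The prior was removed for linear CPM. With 3 libraries a group an exact permutation test cannot go below p = 0.10.

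The members and gene lists were chosen with earlier results of these data known. Genes named are the members, all measured genes within 500 kb of Alad, the 5 most alike to Alad and to Hmox1 by each measure, and at most 4 called genes per list and comparison, with further ones named to account for small counts and a few not reported here. limma 3.58.1 in R 4.3.3 (lmFit, contrasts.fit, eBayes with a trended prior) was fitted to the 8 group means over 14159 genes (1 row without a symbol left out), with 2-sided tests and Benjamini-Hochberg adjustment, and was tested on simulated data of the same design. The study's own fit used voom on counts. p-values measure the spread between libraries. Alternatives were log2(CPM + 1), a mean log2 CPM of at least 1, equal totals, library weights (arrayWeights, gene by gene), a replicate block, the compared groups only and each library left out. Same-numbered libraries deviated together (residual r over 0.1 in all 3 pairs: 0.105, 0.532 and 0.439) only for the strains with PE, where the block kept every member's call.

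Of the symbols, 13100 matched GENCODE vM39 (GRCm39) and 657 older names. Promoters came from RefSeq (GRCm38.p6), 7 of the 9 members being searched. Hmox1 and Fech were not. Shared transcript sequence was sought with BLAST 2.17.0.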

Additional observations from a re-analysis of the deposited data

Results flagged for a closer look

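The change of Slc4a1, a red cell gene, from uninjured to PE muscle differed between the strains by 6.43 (SE 1.03, limma adjusted p = 0.0374 for the test of the difference itself). It was listed at 0 in all 3 B6 PE libraries and read 0.55, -0.24 and -0.70 log2 CPM in the MRL PE libraries, so the size depends on the prior count. The PE interaction of Alas2, which moved with the same red cell genes, was 5.37 (adjusted p = 0.181).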

How the results depend on the processing

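Each group held 3 libraries, counts were not analysed, and genes near the 0.119 CPM that 3 counts give have fold changes set by the prior count. Of 76 values compared per alternative, 73 kept their direction and side of the threshold (or, for counts, stayed close to the count given in the report) with log2(CPM + 1), 72 with genes under a mean of 1 log2 CPM removed, 68 with the replicate block, 61 with equal totals and 44 with library weights, and 45 of 55 with the compared groups only. The causes of the changes below were not tested, and all counts are of genes called by limma. The share of all genes called in each of these fits is not given beside the counts and shifts between fits as well. The counts therefore describe how far the calls depend on the processing and are no result about the members or lists.

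The weights ran from 0.0939 (MRL PE replicate 2) to 5.93 (B6 PE replicate 1). With them, members called were 4 for the strain average, 2 after saline, 2 with ECM and 5 with PE between strains. In B6 they were 2 after saline, 3 with ECM and 8 with PE, and 5 with PE against saline. In MRL they were 1 with PE and 1 with PE against saline, and 2 for the PE interaction. Neighbours numbered 10. For the strain average, B6 PE and MRL PE, heme transport and breakdown gave 13, 14 and 7 genes. On the strain average the weights gave 10 heme protein genes, 6 iron genes, 4 Nrf2 genes and 5 erythroid genes, and in MRL with PE they gave 5 heme protein genes and 4 iron genes, with 6 iron genes in B6 with PE. Ppox with PE in B6 turned to 0.04.

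With equal totals, Ppox with PE in B6 turned to 0.41, and the strain averages of Uros and Fech turned to -0.14 and -0.06. Alad differed by 1.42 between strains with ECM, where the median of all genes moved by -0.27. Members called were 3 in B6 and 1 in MRL with PE, iron genes 5 in B6 and 6 in MRL with PE, and 1 Nrf2 gene on the strain average. With log2(CPM + 1) 1 member was called on the strain average. With the filter 1 member and 5 heme protein genes were called in MRL with PE.

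With the replicate block, an analysis of same-numbered libraries as pairs, 1 member was called on the strain average (Ppox). In B6 with PE 5 were called, Uros entering and Cpox leaving. In MRL with PE the block and the compared groups only each called 0 genes of every list named above. With the compared groups only, the members called were 0 between strains with PE, 1 in B6 with ECM and 1 in B6 with PE against saline.

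Leaving out 1 library gave 1 to 4 members called on the strain average (4 without MRL PE replicate 2, 1 in 15 other fits), 0 to 0 in uninjured muscle, 0 to 1 after saline (1 without B6 saline replicate 2 or MRL saline replicate 1), 0 to 1 with ECM and 0 to 3 with PE (2 without B6 PE replicate 3). It gave 0 to 1 in B6 after saline (1 without B6 saline replicate 2), 0 to 1 with ECM, 2 to 6 with PE and 0 to 4 with PE against saline, 0 to 4 in MRL with PE (1 without B6 saline replicate 2 or 3, B6 PE replicate 2 or MRL saline replicate 1) and 0 to 2 for the PE interaction. Neighbours ran from 3 to 7. For the strain average, B6 PE and MRL PE the ranges were 3 to 7, 0 to 11 and 0 to 10 (heme transport and breakdown), 1 to 9, 2 to 12 and 0 to 11 (heme proteins), 2 to 4, 1 to 5 and 0 to 5 (iron), 2 to 3, 2 to 8 and 0 to 2 (Nrf2), and 3 to 5, 6 to 7 and 0 to 2 (erythroid). The lowest B6 PE count of each list except the erythroid came without B6 PE replicate 2, and heme transport and breakdown also gave 2 without B6 uninjured replicate 1 or 3, 4 without B6 PE replicate 1 and 5 without B6 uninjured replicate 2. The Nrf2 count was 4 without B6 uninjured replicate 1 or 3. The highest strain averages of the first 3 lists came without MRL PE replicate 2, and that of the erythroid list without it or B6 saline replicate 2. In MRL with PE every list gave 0 called without MRL PE replicate 2 and likewise without B6 or MRL uninjured replicate 1 or 3, and the highest counts came without MRL PE replicate 1 or 3. Directions turned for Uros on the strain average (-0.04 to 0.09), Alad with PE in MRL (-0.17 to 0.48) and Ppox with PE in B6 (-0.10 to 0.11).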
